A study of Oryza sativa Indica Group with 2 samples.

Results

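Chromosome 3 is one of the 12 chromosomes of rice, and its loci in a comparison of chilled leaves are described here. They are all loci of the authors' deposited table whose identifier begins with LOC_Os03g. Where a locus had several coding-sequence models, the model with the largest mean level stands for it. This gave 485 loci of 3946, or 12.3% of the table, for 762 of its 5804 models. In the RefSeq gene table, 11.9% of the rice coding genes placed on a chromosome lie on chromosome 3.

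The 5 digits at the end of a locus identifier number the loci in their order along the chromosome, so neighbours in number are neighbours in place. Chromosome 3 carries genes for light harvesting, carbon fixation, chlorophyll synthesis, jasmonate synthesis and cellulose synthesis, together with the red-light receptor phytochrome B. In chilled rice leaves, carbon fixation slows while light absorption goes on, and calcium-dependent kinases, jasmonate and transcription factors of several families take part in the response.

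The leaves came from indica seedlings with 3 leaves, about 20 days old, of 2 IRGA lines whose names begin alike, 1 labelled cold-tolerant and 1 cold-sensitive. Both had spent 6 h at 10 °C, lit at 40 µmol m-2 s-1, and leaf RNA of 9 plants was pooled for each. There was 1 library per genotype and no unchilled plant, so no value has a replicate check and no test between the genotypes was made. The table's fold change has no genotype in its header. Library A here means its numerator and library B its denominator, with scaled sizes of 12846997 and 12152372 reads, and neither is assigned to a genotype. RPM, the unit of all levels here, is a locus's reads scaled by its library's size, both recovered from the deposited log2 values. Ratios are log2 values of A over B with 95% intervals that cover counting error only, so a negative ratio means more in library B.

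The leaf label was checked on 3 genes of other chromosomes that leaves express strongly. Rubisco activase (RCA) had 27181 RPM in A and 28822 RPM in B, the most reads of any locus in the table. The Rubisco small subunit gene RBCS had 2886 and 6588 RPM, and the chlorophyll-binding protein gene CAB2R had 936 and 2209 RPM. All 3 stood among the 23 loci with most reads. RBCS and CAB2R were higher in B, as most chromosome 3 loci were, and their part in that direction was not tested.

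Most chromosome 3 loci read higher in library B. Of the 485 loci, 324 (66.8%) were higher in B against 58.6% of all loci in the table, and 161 (33.2%) were higher in A against 41.4%. Over the other chromosomes 42.6% of 3461 loci were higher in A. The share higher in A ran from 33.2% on chromosome 3 to 56.4% on chromosome 12, and chromosome 3 had the lowest of the 12 shares. It remained the lowest when the ratios were centred on the table's median, at 44.1% on chromosome 3, and with the table's own totals as library sizes, at 36.9%. No test of the difference between chromosomes was made. In leaves, fewer cells of a type and less RNA per cell cannot be told apart.

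The differences were mostly small. Among the 484 chromosome 3 loci read in both libraries the median log2 ratio was -0.42, against -0.31 over all such loci of the table. The quartiles of the chromosome's ratios were -0.75 and 0.31, and its 10th and 90th percentiles were -1.20 and 0.57. Over all loci the 10th and 90th percentiles were -1.33 and 0.87, so the 2 distributions were closer on the side of library B than on the side of library A. In 396 of the 484 loci (81.8%) the libraries differed by less than 1 log2. The median absolute ratio was 0.55, against 0.57 over all loci. Because the table lists only models under an adjusted p of 0.05, a locus with few reads is in it only if its ratio is large, and these shares describe the listed loci and not the whole chromosome.

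Loci with a ratio of at least 1 log2 toward library A were few. There were 17 of them (3.51%) against 9.63% of all loci in the table, and 72 loci (14.8%) were at least 1 log2 higher in B against 17.6%. In either direction the count was 89 (18.4%) against 27.2%. At 2 log2 or more there were 5 loci higher in A, with 4.05% of all loci past that limit, and 19 higher in B, with 5.68%. Chromosome 3 had the lowest of the 12 shares past 1 log2 toward A, followed by chromosome 5 with 4.70%, and chromosome 7 had the highest with 19.3%. Toward B its share was above those of chromosomes 10 and 12, 13.9% and 14.4%, and below the other 9. With ratios centred on the table's median the chromosome 3 counts were 31 higher in A and 40 higher in B, or 6.39% and 8.25%. The share toward A was still the lowest of the 12. The share toward B became the lowest, next to 8.42% on chromosome 12. Chromosome 3 was chosen for few loci read in 1 library only, and such loci also count in the shares past 1 log2.

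**Figure D1:**
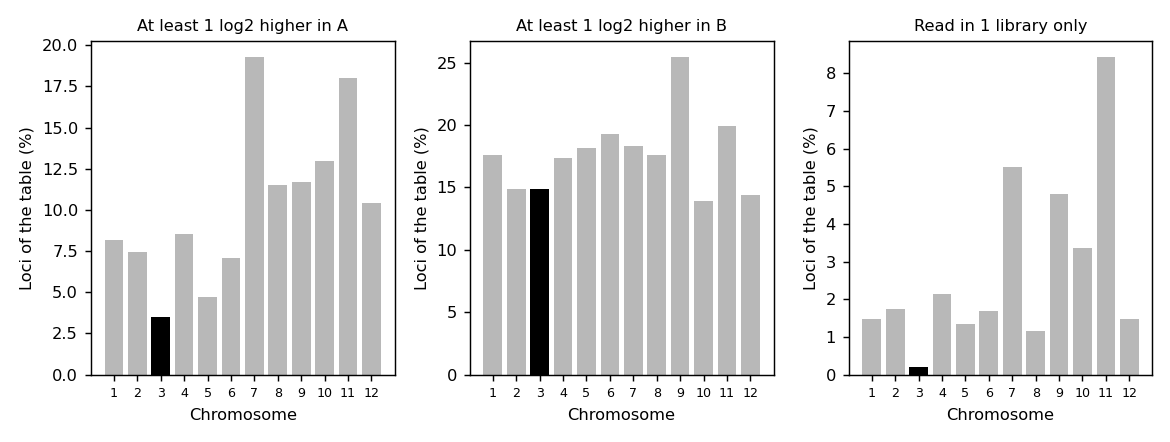
Share of each chromosome's listed loci (%) at least 1 log2 higher in library A (left), at least 1 log2 higher in library B (middle) and read in 1 library only (right), with chromosome 3 in black. Chromosome 3 stands at 3.51%, 14.8% and 0.206%, the lowest of the 12 bars on the left and on the right. It was chosen for few loci read in 1 library only, so its place on the right is no result. Such loci also count on the left or in the middle, so those shares reuse part of the values behind the choice.

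A single locus of chromosome 3 was read in 1 library only. LOC_Os03g06940 had 0 reads in A, which allows up to 0.234 RPM, and 9 reads or 0.741 RPM in B (0.339 to 1.41), so it was at least 1.45-fold higher in B. Its share of the chromosome's loci is 0.206%, against 2.53% over the table. Chromosome 3 was chosen for description because few of its loci were read in 1 library only, so this low share is no result. Loci read in 1 library only also count as past 1 log2, so the shares past that limit reuse part of these values. Read in A only were 0 of the 485 loci against 1.37% of all loci, and 54 loci of the table in all. Read in B only were this 1 locus here and 1.17% of all loci. On the other chromosomes the share of loci read in 1 library ran from 1.15% on chromosome 8 to 8.43% on chromosome 11.

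With up to 3 reads allowed in the lower library the count on chromosome 3 was 13 (2.68%), against 4.99% of all loci. This limit widens the measure by which chromosome 3 was chosen and includes its loci, so the low share is no result. Of these 13, 4 were higher in A and 9 in B, counting LOC_Os03g06940. The deepest of them was LOC_Os03g05334, with 2 reads in A and 69 in B, or 0.156 and 5.68 RPM. LOC_Os03g05840 followed with 3 and 56 reads, or 0.234 and 4.61 RPM. Toward A, LOC_Os03g38375 had 19 and 2 reads, LOC_Os03g09830 had 18 and 1, LOC_Os03g38370 had 16 and 2, and LOC_Os03g37610 had 14 and 1. Each of these A-higher loci thus rests on fewer than 20 reads in its higher library.

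Chromosome 3 loci had a median of 704 reads over both libraries, against 626 in the whole table, with quartiles of 270 and 1967 and a range of 9 to 57373. Their median level was 24.8 RPM in A and 30.0 RPM in B. Summed over the chromosome, the levels were 42563 RPM in A and 49251 RPM in B, a log2 ratio of -0.21. The 10 loci with most reads held 33.3% of the reads, and the summed ratio was -0.21 both over these 10 and over the other loci. Reads are not divided by gene length here, so they do not rank transcript levels between genes.

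Ratios of at least 2 log2 belonged mostly to loci with few reads, which the adjusted p limit lists only if their ratio is large. Of the 432 loci with at least 100 reads, 5 were at least 1 log2 higher in A and 38 higher in B, and at 2 log2 the counts were 0 and 2. The 53 loci under 100 reads gave the other 12 and 34, and at 2 log2 5 and 17. The comparison with other chromosomes was therefore also made within 4 classes of reads, whose limits are the quartiles of the table. Among loci of 9 to 195 reads, 16.5% of 79 chromosome 3 loci were at least 1 log2 higher in A, against 32.5% of 905 loci elsewhere, and 55.7% against 46.7% were at least 1 log2 higher in B. In the class of 196 to 625 reads the shares toward A were 2.68% and 5.13%, and toward B 11.4% and 14.3%. From 626 to 1473 reads no chromosome 3 locus passed 1 log2 toward A, against 1.48% elsewhere, while 7.21% against 4.57% did toward B. From 1474 reads on it was again 0 against 1.54% toward A, and 2.05% against 4.51% toward B. The share toward A was the smaller one on chromosome 3 in all 4 classes, and the share toward B was larger in the first and the third class and smaller in the other 2.

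**Figure D2:**
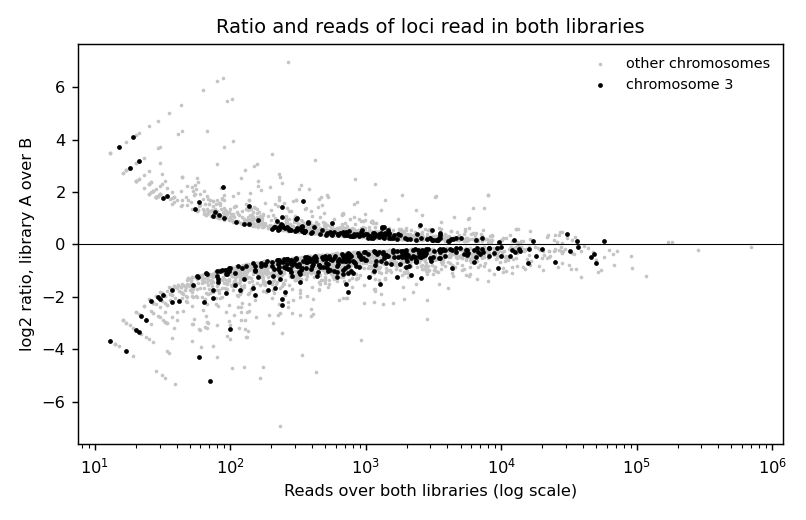
Log2 ratio of library A over B against the reads over both libraries (log scale) for each locus read in both, with the 484 loci of chromosome 3 in black and the other chromosomes in grey. The empty band around 0, widest at few reads, is where the authors' adjusted p limit leaves no listed locus, and no black point from 626 reads on lies at or above 1.

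The 10 chromosome 3 loci with most reads differed little between the libraries, by at most 0.71 log2, with 3 higher in A and 7 in B. LOC_Os03g52840 had the most reads, with 2409 RPM in A and 2174 RPM in B, a log2 ratio of 0.15 (0.12 to 0.17). LOC_Os03g52170 had 1389 and 1058 RPM and a ratio of 0.39 (0.36 to 0.43). The third locus higher in A was LOC_Os03g38730, with 1512 and 1380 RPM. On the side of B, LOC_Os03g03910 had 1688 and 2193 RPM, and LOC_Os03g03720 had 1542 and 2152 RPM. LOC_Os03g56280 had 1416 and 1507 RPM, a ratio of -0.09 that becomes 0.22 when centred on the table's median. The other 4 of the 10 are RCABP89, CHLH, RPE and GLO1, described below with the genes of their pathways.

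Among loci with at least 100 reads, the 5 ratios farthest toward library B ran from -2.32 to -1.81. LOC_Os03g02750 had 42 reads in A and 198 in B, or 3.27 and 16.3 RPM, a ratio of -2.32 (-2.83 to -1.83). LOC_Os03g32470 had 48 and 192 reads, a ratio of -2.08 (-2.57 to -1.62). LOC_Os03g40670, with 33 and 119 reads, and LOC_Os03g41200, with 58 and 193, had ratios of -1.93 and -1.81. The best-read of the 5 was LOC_Os03g56930, with 13.2 RPM in A and 46.6 RPM in B, a ratio of -1.82 (-2.08 to -1.57).

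The 5 ratios farthest toward library A were smaller in size and ran from 1.03 to 1.65. LOC_Os03g55660 had 262 reads in A and 79 in B, or 20.4 and 6.50 RPM, a ratio of 1.65 (1.28 to 2.03). LOC_Os03g01200 had 102 and 35 reads, a ratio of 1.46 (0.90 to 2.06). LOC_Os03g05340 had 177 and 62 reads, a ratio of 1.43 (1.01 to 1.87). The remaining 2 were LOC_Os03g31690, with 213 and 99 reads, and the jasmonate synthesis gene AOS2 at LOC_Os03g12500. These are the only 5 chromosome 3 loci with at least 100 reads and a ratio of at least 1 toward A.

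Along the chromosome, loci higher in B were the more numerous in nearly every stretch. The chromosome was divided into 13 stretches of 5000 locus numbers, which held 13 to 58 loci each. In 12 of the 13 more loci were higher in B, in 1 (the ninth) 9 were higher in each library, and in 0 more were higher in A. Each of the other 11 chromosomes had between 2 and 7 stretches of at least 10 loci in which more loci were higher in A. The highest share higher in A in any stretch was 9 of 18 loci on chromosome 3 and 57.9% to 87.5% on the others. Centred on the table's median, 3 stretches of chromosome 3 had more loci higher in A and 9 had more higher in B.

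The stretch medians varied within a narrow range, from -0.56 in the third stretch to 0.0063 in the ninth. In the third stretch 11 of 47 loci were higher in A, in the second 12 of 50, and in the twelfth 13 of 52. In the eleventh stretch 22 of 50 loci were higher in A, with a median of -0.30. The seventh stretch had the fewest loci, 13, of which 6 were higher in A. On each of the other chromosomes the highest stretch median was further toward A, between 0.26 and 0.96, and the lowest lay between -0.71 and -0.44.

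**Figure D3:**
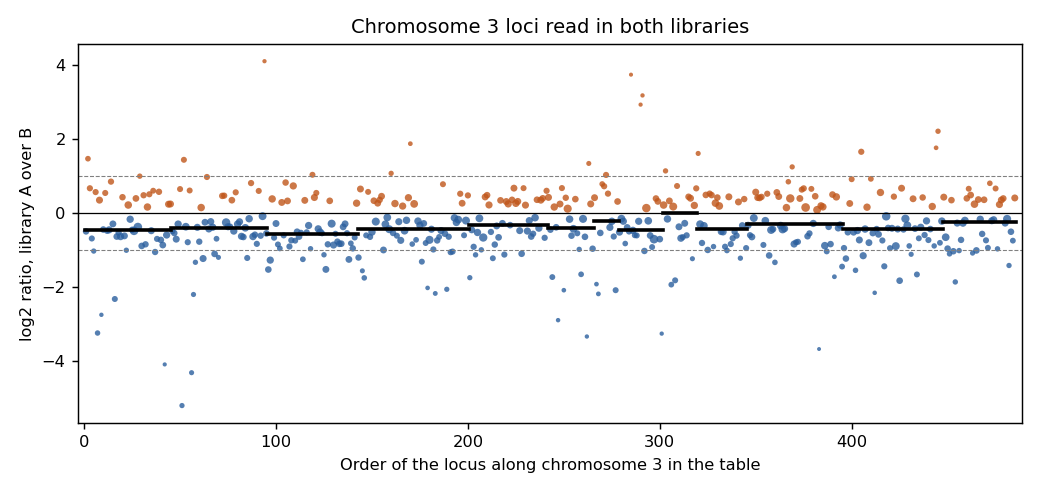
Log2 ratio of library A over B for the 484 loci read in both libraries, in their order along chromosome 3, larger points having more reads, orange for higher in A and blue for higher in B. Black bars are the medians of the 13 stretches of 5000 locus numbers, which lie between -0.56 and 0.0063, and dashed lines mark 1 log2 in each direction.

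**Figure D4:**
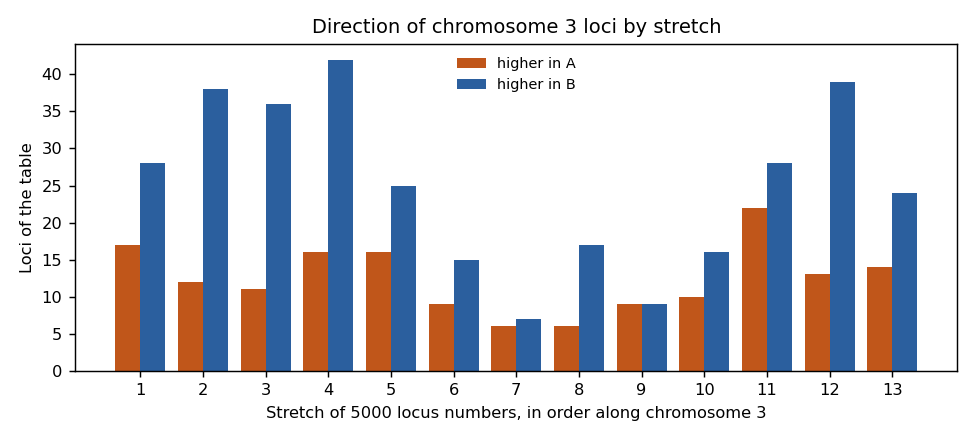
Number of loci higher in library A (orange) and in library B (blue) in each of the 13 stretches of 5000 locus numbers along chromosome 3. The blue bar is the taller one in 12 stretches, and in the ninth both stand at 9.

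Runs of neighbouring listed loci with 1 direction were longer toward B. The longest run higher in B held 14 loci, from LOC_Os03g17580 to LOC_Os03g18454, with ratios from -2.17 to -0.22 and a median of -0.72. Its first locus had 4.44 RPM in A and 7.32 RPM in B, its last 62.3 and 86.6 RPM, and APX1, described below, lies within it. A second run of 13 loci went from LOC_Os03g13810, with 456 and 556 RPM, to LOC_Os03g14730, with 7.24 and 11.4 RPM. The longest run higher in A held 4 loci, a length reached 5 times, against 5 to 14 loci on the other chromosomes, while the longest run toward B was 9 to 14 loci on the others. The 5 runs toward A went from LOC_Os03g21990 to LOC_Os03g22270, LOC_Os03g30890 to LOC_Os03g31890, LOC_Os03g50310 to LOC_Os03g50390, LOC_Os03g51960 to LOC_Os03g52230 and LOC_Os03g52690 to LOC_Os03g52840. Their median ratios were 0.33, 0.75, 0.42, 0.62 and 0.51. Centred on the table's median the longest runs of chromosome 3 were 5 loci toward A and 9 toward B.

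Neighbours in the table both at least 1 log2 higher in A were found 2 times on chromosome 3, and 9 times for B. On the other chromosomes the count of such pairs toward A ran from 0 on chromosome 5 to 24 on chromosome 7. Toward B it ran from 8 on chromosome 5 to 23 on chromosome 9. These counts are not scaled for the number of loci and depend on the shares past 1 log2 given above. The only 3 such loci in a row were LOC_Os03g05840, LOC_Os03g05860 and LOC_Os03g05880, with 3, 12 and 24 reads in A and 56, 52 and 57 reads in B. Their levels in B were alike, between 4.28 and 4.69 RPM, and their levels in A lay between 0.234 and 1.87 RPM. LOC_Os03g10060 and LOC_Os03g10090 were the best-read pair, with 14.9 and 43.0 RPM for the first and 60.4 and 146 RPM for the second. Toward A the pairs were LOC_Os03g38370 with LOC_Os03g38375, given above, and LOC_Os03g59225 with LOC_Os03g59250, which had 25 and 73 reads in A and 7 and 15 in B. Opposite directions also stood side by side. LOC_Os03g05334, at 2 and 69 reads, lies between LOC_Os03g05330, at 157 and 95 reads, and LOC_Os03g05340, at 177 and 62 reads.

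Read numbers were shared between some loci. On chromosome 3, 142 loci (29.3%) had at least 100 reads in each library and matched another locus of the table within 1% in both, against 26.9% of all loci. Such loci may count the same reads or be alike by chance, and this was not tested. Without them 96 of 343 chromosome 3 loci (28.0%) were higher in A. The share higher in A also fell on every other chromosome, to between 31.9% on chromosome 5 and 49.6% on chromosome 12. On chromosome 3 the counts past 1 log2 were 17 and 72 as before. Stretches with more loci higher in A then numbered 1, the ninth, with 7 of 11.

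Genes were named where a symbol of the RefSeq table lies on chromosome 3 at the place the locus number gives. Of 104 loci listed by pathway, 65 could be named in this way. Of those, 29 were in the table, 5 higher in A and 24 (82.8%) higher in B. The share higher in B was 66.8% over chromosome 3 and 58.6% over all loci. The median ratio of the 29 was -0.28 beside -0.42 for the chromosome. These lists were chosen with earlier results known, and the whole chromosome had 13.9 listed loci per 100 RefSeq coding genes, so the share of list members found in the table is no result. Another 13 named genes were added after their values had been seen, 4 higher in A and 9 in B, so this count is no result. Of the 42 named genes, 9 have read numbers that match another locus, and none of these 9 has a ratio of 1 log2 or more. They are DVR, SODCC1, SUT1, PHYB, CPK7, HSFA9, UAM1, BGLU7 and GPI-A. The median of the 29 is positive, at 0.024, when centred on the table's median. Then 15 of the 29 are higher in A, against 44.1% of chromosome 3 loci.

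Another 14 listed loci were in the table under an identifier with no name checked by place, 1 higher in A and 13 higher in B, with a median ratio of -0.57. All 43 listed loci in the table together had a median of -0.48, with 6 higher in A and 37 (86.0%) in B, against 66.8% of chromosome 3 loci and 58.6% of all loci. Centred on the table's median, 17 of the 43 are higher in A, against 44.1% of chromosome 3 loci centred alike. LOC_Os03g52840, LOC_Os03g03720 and LOC_Os03g03910, given above, are among the 14. Counts and medians for single pathways, in all later paragraphs, cover named genes only. The lowest ratio belonged to LOC_Os03g60560, with 1.63 RPM in A and 5.92 RPM in B, a ratio of -1.86 (-2.63 to -1.14). LOC_Os03g21560 had 106 and 218 reads, a ratio of -1.12 (-1.47 to -0.78). These were the only 2 of the 14 at least 1 log2 apart. LOC_Os03g18070 had 481 and 794 RPM, LOC_Os03g56670 had 267 and 495 RPM, and LOC_Os03g60080 had 197 and 310 RPM, with ratios of -0.72, -0.89 and -0.65. LOC_Os03g16860, LOC_Os03g17070 and LOC_Os03g20120 had ratios of -0.44, -0.48 and -0.45, and LOC_Os03g11910 and LOC_Os03g57450, each under 12 RPM in both libraries, had -0.75 and -0.89. LOC_Os03g50480 had 206 and 238 RPM, a ratio of -0.21 that turns to 0.10 when centred.

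For light reactions and pigments 1 and 4 named genes were in the table, and these 5 read higher in B under the authors' scaling. RCABP89, which encodes a chlorophyll a/b-binding protein of light harvesting, had 1520 RPM in A and 2480 RPM in B, a ratio of -0.71 (-0.73 to -0.68). It was the only light-reaction gene of the list that could be named. LOC_Os03g56670, LOC_Os03g21560 and LOC_Os03g17070, given above, are the listed light-reaction loci without a checked name, with ratios of -0.89, -1.12 and -0.48. CHLH, the large subunit of the magnesium chelatase that starts the chlorophyll branch, had 781 and 1235 RPM, a ratio of -0.66 (-0.70 to -0.62). CHLI, a smaller subunit of the same enzyme, had 65.9 and 94.3 RPM, a ratio of -0.52. Both subunits thus lay on the same side, and both passed the authors' adjusted p limit, as every listed locus did. DVR, a later reductase of chlorophyll synthesis, had 22.3 and 34.6 RPM, a ratio of -0.63 (-0.86 to -0.41). PDS, the phytoene desaturase of carotenoid synthesis, had 140 and 156 RPM, a ratio of -0.15 that turns to 0.15 when centred. Of 6 named pigment genes 4 were in the table, all 4 higher in B, against 66.8% of chromosome 3 loci and 58.6% of all loci, with a median of -0.58. Centred, 3 of the 4 are higher in B, beside 271 of 485 chromosome 3 loci.

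The named genes of carbon fixation and photorespiration showed small ratios. RPE, the ribulose-phosphate epimerase of the Calvin cycle, had 1169 RPM in A and 1396 RPM in B, a ratio of -0.26 (-0.29 to -0.22). FBPase, a fructose-1,6-bisphosphatase, had 505 and 592 RPM, a ratio of -0.23. GLO1, a glycolate oxidase of photorespiration, had 762 and 849 RPM, a ratio of -0.15. All 3 named genes turn positive when centred on the table's median, at 0.052, 0.076 and 0.15, so their direction depends on the scaling. Also listed here, under identifiers alone, LOC_Os03g03720 had a ratio of -0.48 that is -0.17 when centred. LOC_Os03g52840 had 0.15, or 0.46 when centred. The added gene FNR, a ferredoxin-NADP reductase, was higher in A, with 66.6 and 41.9 RPM and a ratio of 0.67 (0.51 to 0.83). URO-D2, an enzyme of tetrapyrrole synthesis also added, had 26.2 and 32.9 RPM.

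The 2 named antioxidant enzymes were close to even. APX1, an ascorbate peroxidase that removes hydrogen peroxide, had 142 RPM in A and 166 RPM in B, a ratio of -0.22 (-0.31 to -0.13). SODCC1, a copper/zinc superoxide dismutase, had 189 and 207 RPM, a ratio of -0.13. Both become positive when centred, at 0.089 and 0.18. LOC_Os03g03910, listed with them under its identifier, had a ratio of -0.38 that is -0.070 when centred.

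Genes of light perception, the clock and sugar transport were among those higher in A. PHYB, the photoreceptor phytochrome B, had 47.1 RPM in A and 39.3 RPM in B, a ratio of 0.26 (0.09 to 0.44). PRR73, a pseudo-response regulator of the circadian clock, had 310 and 262 RPM, a ratio of 0.25 (0.18 to 0.31). SUT1, a sucrose transporter, had 37.2 and 29.3 RPM, a ratio of 0.34 (0.14 to 0.55). Both other scalings raise every ratio, so these 3 could not change side under them. PHYB and SUT1 are among the named genes whose read numbers match another locus. Of 8 named genes of light perception and flowering 2 were in the table, and of 7 of sugar, starch and nitrogen also 2. The other of the latter was RINO1, a myo-inositol-phosphate synthase, with 387 and 411 RPM and a ratio of -0.09 that is 0.22 when centred.

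Jasmonate genes lay on both sides. Jasmonate is made from fatty acids through allene oxide synthase and then allene oxide cyclase, and JAZ proteins of the TIFY family repress its targets. AOS2, an allene oxide synthase, had 12.8 RPM in A and 6.25 RPM in B, a ratio of 1.03 (0.63 to 1.44), and was the only listed gene at least 1 log2 higher in A. AOC, the allene oxide cyclase, had 10.8 and 16.8 RPM, a ratio of -0.63 (-0.96 to -0.32). Consecutive enzymes of the pathway thus had opposite directions. AOC stays higher in B under both other scalings, which raise every ratio, so AOS2 could not change side. The repressor TIFY11B had 63.5 and 98.2 RPM, a ratio of -0.63 (-0.76 to -0.50). TIFY10A, another repressor, had 509 and 569 RPM, a ratio of -0.16 that turns to 0.15 when centred. D14, the receptor of strigolactones, had 48.3 and 58.8 RPM, a ratio of -0.28 that turns to 0.024. In all, 5 of 16 named hormone genes were in the table, 1 higher in A and 4 higher in B, against 66.8% of chromosome 3 loci and 58.6% of all loci higher in B. Centred, 3 of the 5 are higher in A, against 44.1% of chromosome 3 loci.

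Among kinases and stress transcription factors, 5 of 7 named genes were in the table, 1 higher in A and 4 in B, with a median of -0.62. The share higher in B was 66.8% over chromosome 3 and 58.6% over all loci. Centred, 2 of the 5 are higher in A, against 44.1% of chromosome 3 loci. MYB2, a stress-related MYB transcription factor, had 18 reads in A and 57 in B, or 1.40 and 4.69 RPM, a ratio of -1.74 (-2.60 to -0.96). The calcium-dependent kinase CPK9 had 7.24 and 13.6 RPM, a ratio of -0.91, and CPK7 had 105 and 118 RPM, a ratio of -0.17 that is 0.14 when centred. Kinases of the CIPK family, which are activated by calcineurin B-like calcium sensors, differed in direction. CIPK9 had 40.8 and 62.5 RPM, a ratio of -0.62 (-0.78 to -0.45), and CIPK10 had 64.0 and 40.2 RPM, a ratio of 0.67 (0.51 to 0.83). CIPK9 stays higher in B under both other scalings, and CIPK10 could not change side because both raise every ratio. Of 9 named heat shock genes 1 was in the table, the heat stress transcription factor HSFA2D, with 91.6 and 119 RPM and a ratio of -0.38. HSFA9, another factor of that family among the added genes, had 87.3 and 110 RPM.

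The named membrane and cell wall genes in the table had a median of -0.91. Of 5 named genes 4 were in the table, all 4 higher in B, against 66.8% of chromosome 3 loci and 58.6% of all loci. LOC_Os03g18070, listed with them under its identifier, had a ratio of -0.72, or -0.42 when centred. CESA5, a cellulose synthase, had 20.9 RPM in A and 42.1 RPM in B, a ratio of -1.01 (-1.23 to -0.79). CESA2, another cellulose synthase, had 4.90 and 8.56 RPM, a ratio of -0.80 (-1.28 to -0.34). CSLC9, a cellulose synthase-like gene, had 5 and 21 reads, or 0.389 and 1.73 RPM, a ratio of -2.15 with a wide interval of -3.91 to -0.70. TIP1-1, a water channel of the vacuole membrane, had 43.2 and 70.4 RPM, a ratio of -0.71. All 4 named genes stay higher in B when centred, with a median of -0.60, beside 271 of 485 chromosome 3 loci.

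Of the other added genes, 3 were higher in A and 7 higher in B, against 66.8% of chromosome 3 loci and 58.6% of all loci higher in B. CHI, the chalcone isomerase of flavonoid synthesis, had 16.2 RPM in A and 33.1 RPM in B. CEBIP, the receptor that binds chitin fragments at the cell surface, had 19.9 and 36.9 RPM. SPX5, of the SPX family of phosphate signalling, had 2 and 19 reads, or 0.156 and 1.56 RPM. These 3 were the added genes with the ratios farthest toward B, at -1.03, -0.89 and -3.33. Toward A were TPKA, a potassium channel of the vacuole, with 161 and 119 RPM, and NLP1, a NIN-like protein, with 39.0 and 29.7 RPM. ABCC13, an ABC transporter, had 68.3 and 57.9 RPM. For UAM1 the levels were 133 and 149 RPM, for BGLU7 31.1 and 39.3 RPM, for GF14F 356 and 391 RPM and for GPI-A 48.7 and 64.8 RPM. These 4 had ratios of -0.16, -0.34, -0.14 and -0.41, and UAM1 and GF14F turn positive when centred, at 0.15 and 0.17.

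**Figure D5:**
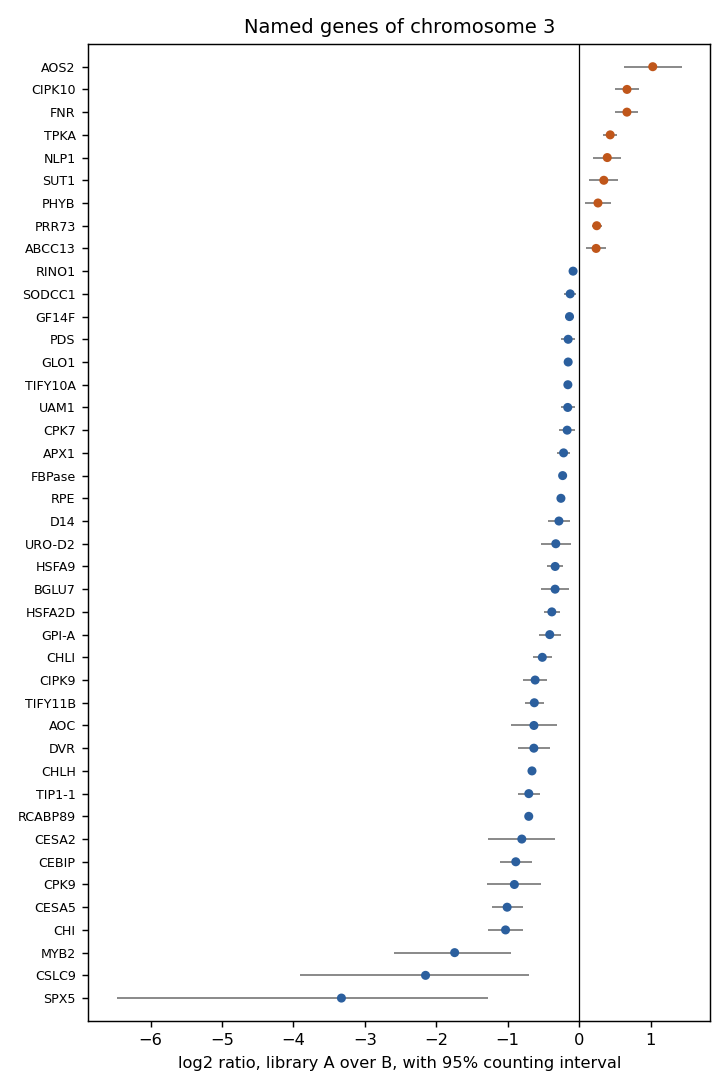
Log2 ratio of library A over B for the 42 named genes of chromosome 3 in the table, orange for higher in A and blue for higher in B, with lines for the 95% counting intervals. The order runs from AOS2 at 1.03 to SPX5 at -3.33, and 9 of the 42 lie above 0.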

How the data were processed

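The deposited table compares 2 leaf libraries. Per the submitters' processing notes, Bowtie 0.12.7 and edgeR were used; the sources used here do not name a genome build, an annotation release or a dispersion. Per the file headers, the authors deposited for each model a mean log2 share of reads, a log2 fold change and its p-value, raw and adjusted, the latter at most 0.0499. Reads were recovered from the log2 columns, 100% of them whole within 1e-06 of a read. Recovery was tested on simulated data. Intervals are exact, Poisson for levels and Clopper-Pearson for ratios, and with 0 reads a floor of 3 was used. They cover counting error only.

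The members, gene lists and tests were chosen with earlier results of these data known. Described one by one were all listed loci in the table, the 10 loci with most reads, the 5 largest and 5 smallest ratios among loci with at least 100 reads, loci read in 1 library, and the ends of the longest runs. Loci with up to 3 reads in a library, neighbours past 1 log2 and LOC_Os03g05330 were chosen after their values were seen. Names pair field knowledge of locus identifiers with symbols of RefSeq assembly ASM3414082v1: of 117 loci looked up, 78 lay within 500 kb of the place interpolated from the other named genes (median 11.2 kb, largest 122 kb), 34 had no single entry, 4 shared an entry and 1 was left out by its place. This check cannot tell near neighbours apart. Loci with no name checked in this way are given by identifier.

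Alternatives were centring on the median over all loci (-0.31), the table's own totals as library sizes (a shift of 0.19), every model, loci with at least 100 reads, no matching loci, a limit of 2 log2, a pseudocount of 1 RPM, up to 3 reads in the lower library and stretches of 10000 locus numbers. Added after seeing the data were the 4 classes of reads, the 13 extra genes, the table's own totals for the stretches and a minimum of 100 reads per library for matching loci.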

Additional observations from a re-analysis of the deposited data

How the results depend on the processing

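No paired analysis was possible because there is a single library of each genotype. Counting every model gave 259 higher in A and 503 in B, and leaving out matching loci gave 96 higher in A. Past 1 log2, the counts toward A and B were 31 and 40 when centred, 5 and 38 with at least 100 reads, 5 and 19 at 2 log2, and 7 and 46 with a pseudocount. The median was -0.11 centred and -0.23 with the table's totals. Loci read in 1 library numbered 13 with up to 3 reads. Stretches of 10000 numbers gave 7 with more loci higher in B. Stretches with more higher in A numbered 3 centred, 1 without matching loci and 1 with the table's totals, and the longest run toward B was 9 when centred. List medians, centred and then with the table's totals, were 0.076 and -0.037 for carbon fixation and photorespiration, -0.27 and -0.38 for pigments, 0.024 and -0.089 for hormones and for all lists together, -0.31 and -0.42 for stress factors and kinases, and -0.60 and -0.71 for membrane and wall. Of 79 named genes and loci, 14 changed sign when centred and 9 of these also with the table's totals. The first value is centred and the second from the totals: GLO1 0.15 and 0.040, PDS 0.15 and 0.040, SODCC1 0.18 and 0.068, RINO1 0.22 and 0.11, TIFY10A 0.15 and 0.036, CPK7 0.14 and 0.026, UAM1 0.15 and 0.034, GF14F 0.17 and 0.059, LOC_Os03g56280 0.22 and 0.11. Centred only, they were FBPase 0.076, RPE 0.052, APX1 0.089, D14 0.024 and LOC_Os03g50480 0.10. These changes follow from the shift that each scaling applies to every ratio. Depth limits the 53 loci under 100 reads most.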
